A study of Mus musculus with 16 samples.

Results

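Checkpoint ligands are cell surface or secreted proteins that restrain T cells or macrophages, and RNA of 10 of their genes was followed here among the 49139 genes with a symbol in the count tables: Cd274, Pdcd1lg2, Cd276, Pvr, Nectin2, Lgals9, Tnfrsf14, Vsir, Cd47 and Cd200. The genes were taken by symbol, and all 10 were present in both tables. RNA was sequenced from sorted cells of tumours of 4T07, a mouse mammary carcinoma line, grown in the mammary fat pad of female hybrids of Balb/cJ and C57BL/6J. Mixed tumours were started from GFP-transduced and mCherry-transduced 4T07 cells in equal parts, and Jedi T cells, which recognise GFP and here were PD1KO (lacking PD1, the receptor of PD-L1), were injected on day 7 or day 15. Tumours were taken 7 days after the injection. The groups were surviving GFP cells and untargeted mCherry cells of the same 3 tumours for day 7, the same pair of groups for 3 tumours of day 15, and mCherry cells of 4 control tumours with neither GFP cells nor Jedi T cells. No group held GFP cells from a tumour without Jedi T cells, so a difference between GFP and mCherry cells holds both the reporter and the T cell attack. The labels do not state how long the control tumours grew or how CD45 staining was gated.

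The 16 libraries held 9412040 to 32808354 counts. Day 7 libraries were sequenced in a first run and all others in a second, so day and run cannot be told apart, and levels across days are descriptions only. Levels are counts per 1000000 (CPM), scaled between libraries by the TMM method, with SD over libraries. The keratin genes Krt8 and Krt18, listed as markers of the carcinoma line, were present in each group but lower in GFP cells than in mCherry cells on both days. On day 7 Krt8 averaged 421 ± 81.6 CPM in GFP cells, against 822 ± 101 CPM in mCherry cells (−0.96, edgeR adjusted p = 0.00142), and the log2 fold change of Krt18 was −1.72 (2.41e-04). On day 15 the log2 fold changes were −0.55 for Krt8 and −0.98 for Krt18 (edgeR adjusted p = 0.00824 and 7.19e-04). Of 12 genes on that list, 7 were tested on day 7 (1 higher, 3 lower) and 9 on day 15 (1 higher, 2 lower). Over all genes tested, 18.2% and 19.5% were called. The 1 higher was Cdh1 on both days. It averaged 25.4 CPM in GFP cells, against 6.79 CPM in mCherry cells on day 7, and 34.8 against 13.5 CPM on day 15. Vim, also listed, was not called on day 15 (0.05, edgeR adjusted p = 0.803). Krt14 had no counts in any day 7 library, and the epithelial gene Epcam averaged 0.985 to 1.60 CPM over the groups. The summed level of 20 macrophage and monocyte markers was 116 to 194 CPM in day 7 GFP libraries, against 712 to 1038 CPM in day 7 mCherry libraries. On day 15 it was 58.5 to 75.6 CPM in GFP libraries, against 94.4 to 118 CPM in mCherry libraries, and 86.9 to 230 CPM in controls. Most of the day 15 sum was Cd14, at 44.5 of a mean of 65.1 CPM in GFP cells and 77.2 of 109 CPM in mCherry cells. Adgre1 and Ptprc averaged only 0.158 and 0.607 CPM in day 15 GFP cells, against 0.440 and 1.19 CPM in mCherry cells. Of 15 markers tested on day 15, 10 were lower in GFP cells, and Cd68 leaned the other way (9.81 against 6.09 CPM, not called). The defining markers Adgre1 and Ptprc averaged 0.501 and 1.37 CPM in day 7 GFP cells, against 9.63 and 7.74 CPM in day 7 mCherry cells. The part of these host cells in the results on checkpoint ligands was not tested, and in sorted bulk RNA fewer cells of a type and less RNA per cell cannot be told apart.

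Cd274 encodes PD-L1, the ligand through which tumour cells and myeloid cells engage PD1 on T cells and damp their activity, and Pdcd1lg2 encodes PD-L2, the second PD1 ligand. Interferon gamma released by T cells is the best known inducer of Cd274, through the kinases JAK1 and JAK2 and the transcription factor IRF1. The other members act on different receptors: PVR and nectin-2 on TIGIT and CD226, galectin-9 on TIM-3, HVEM (Tnfrsf14) on BTLA and CD160, CD47 on SIRPα of macrophages and CD200 on its receptor on myeloid cells. CD276 (B7-H3) and VISTA (Vsir) are B7 family proteins.

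Cd274 lies on chromosome 19 at 29367455-29388095 on the plus strand (GRCm38, GENCODE M21), 54374 bases beyond the end of Jak2 and 22823 bases before Pdcd1lg2. RefSeq promoter windows were found for 9 of the 10 genes (all except Pvr), and both strands were searched for 4 letter patterns. The letters GAAA followed after any 2 bases by GAAA, a core of interferon-stimulated response elements, were found in the windows of Lgals9 and Tnfrsf14 among the 9, and 3.44% of all 32851 promoter windows hold them. The Cd274 window held the shorter GAAANNGAA, which overlaps the first pattern and was added after the Cd274 window had been read. This shorter pattern occurs in 8.56% of all windows. No member's window held TTCNNNGAA, the gamma-activated site (8.3% of windows), or GGG followed after any 2 bases by TTTCC, a nuclear factor kappa B site (1.63%). The 250 bases before the RefSeq start are printed for these 3 genes, and for Cd276 as a member whose window held no match. Each is given 5′ to 3′ on the gene's own strand (RefSeq, GRCm38.p6), with capitals marking the matched letters. The windows are chr19:29367188-29367437 on the plus strand for Cd274, and on the minus strand chr4:154928078-154928327 for Tnfrsf14, chr11:78984925-78985174 for Lgals9 and chr9:58555034-58555283 for Cd276.
Cd274: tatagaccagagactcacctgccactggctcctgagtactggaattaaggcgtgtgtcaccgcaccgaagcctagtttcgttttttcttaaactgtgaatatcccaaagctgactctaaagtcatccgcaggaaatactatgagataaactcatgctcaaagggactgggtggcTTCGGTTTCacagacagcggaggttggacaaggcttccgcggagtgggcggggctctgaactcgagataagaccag
Tnfrsf14: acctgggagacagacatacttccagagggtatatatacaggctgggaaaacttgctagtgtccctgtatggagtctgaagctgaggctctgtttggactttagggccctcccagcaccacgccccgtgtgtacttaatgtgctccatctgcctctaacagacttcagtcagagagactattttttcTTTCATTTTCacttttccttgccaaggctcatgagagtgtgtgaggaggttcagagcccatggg
Lgals9: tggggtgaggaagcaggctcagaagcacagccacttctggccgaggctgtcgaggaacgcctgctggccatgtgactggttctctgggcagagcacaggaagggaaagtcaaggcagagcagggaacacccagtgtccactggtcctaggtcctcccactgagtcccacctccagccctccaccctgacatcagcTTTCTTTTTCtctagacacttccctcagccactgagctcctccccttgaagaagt
Cd276: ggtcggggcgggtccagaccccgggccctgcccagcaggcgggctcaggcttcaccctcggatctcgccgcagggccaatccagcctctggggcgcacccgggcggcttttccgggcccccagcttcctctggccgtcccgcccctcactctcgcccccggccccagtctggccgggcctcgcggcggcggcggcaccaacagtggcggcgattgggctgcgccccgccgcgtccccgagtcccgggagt
The matches begin at −76 from the start in Cd274, −64 in Tnfrsf14 and −55 in Lgals9, all on the strand opposite to the gene, and Lgals9 had another just after its start. A match of letters is a description and was not linked to binding here. The Cd274 window also covers the 5′ end of Plgrkt, a plasminogen receptor gene on the opposite strand whose annotation ends at 29367390. In the GENCODE models, Tnfrsf14 and Cd276 extend upstream beyond their windows, and Lgals9 reaches into its own.

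In tumours injected on day 7, comparing GFP with mCherry cells asks which checkpoint ligands differed between survivors of T cell attack and untargeted cells of the same tumour. Of the 8 members that passed the filter on low counts, Cd274 had the largest fitted difference. It stood at 130, 142 and 97.3 CPM in GFP cells of tumours 2, 3 and 4, against 23.6, 29.2 and 18.3 CPM in mCherry cells of those tumours (tumours are numbered as in the count columns). Every GFP library lay above every mCherry library, and the lowest GFP value came from the tumour with the lowest mCherry value. The means were 123 ± 23.1 CPM in GFP cells, against 23.7 ± 5.44 CPM in mCherry cells (SD, n = 3 each). The fitted log2 fold change was 2.40 (SE 0.11; 5.28 times higher), with an adjusted p of 2.76e-06 in edgeR's quasi-likelihood test with tumour as a block and Benjamini-Hochberg adjustment over 14578 genes. The 3 tumours gave log2 differences of 2.46, 2.28 and 2.41. Cd274 had the 4th smallest p of all genes, and 29 called genes had a larger rise. The authors' deposited table gives 2.40 with an adjusted p of 4.06e-58 for Cd274 on day 7.

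At a threshold of 0.05 on the adjusted p, 1 member rose (Cd274) and 1 fell (Cd276) of the 8 members that passed the filter on low counts, where 18.2% of all genes tested were called (8.89% higher, 9.33% lower). The share among members is thus near that of all genes, and the median log2 fold change was 0.21 over the 8 members and 0.00 over all genes tested. Cd276 stood at 36.5, 37.1 and 33.7 CPM in GFP cells of tumours 2, 3 and 4, against 49.8, 41.3 and 56.6 CPM in mCherry cells. The groups did not overlap, though tumour 3 gave a small difference (−0.16, against −0.45 and −0.75 in tumours 2 and 4). The fit gave −0.44 (SE 0.13; 1.35 times lower; edgeR adjusted p = 0.0481). This call ended with DESeq2 (adjusted p = 0.0634), without the tumour block (0.0514) and without any one tumour (0.0684 to 0.123). For Cd276 on day 7 the authors' deposited table gives −0.43 with an adjusted p of 0.0651.

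Tnfrsf14, the HVEM gene, had few counts on day 7. Its levels were 3.39, 4.63 and 5.70 CPM in GFP cells of tumours 2, 3 and 4, against 2.70, 2.60 and 2.33 CPM in mCherry cells. The groups did not overlap, and the fitted log2 fold change of 0.84 (SE 0.28) missed the threshold (edgeR adjusted p = 0.0651). It passed without the filter on low counts (adjusted p = 0.0261) and without tumour 2 (0.0437). In edgeR these settings also gave Cd274 far smaller adjusted p-values (1.54e-69 and 1.15e-32) than the main fit (2.76e-06). Passing there alone is thus weak evidence. Cd47, the macrophage checkpoint, averaged 390 ± 43.7 CPM in GFP cells, against 338 ± 25.8 CPM in mCherry cells (n = 3; log2 fold change 0.22, 95% interval 0.01 to 0.44, edgeR adjusted p = 0.144). Without tumour 4 it was called higher (adjusted p = 0.0176). Vsir, the VISTA gene, stood at 57.8, 52.2 and 35.5 CPM in GFP cells, against 41.4, 42.3 and 42.9 CPM in mCherry cells. Tumour 4 went the other way from tumours 2 and 3, the fit gave 0.19 (edgeR adjusted p = 0.428), and without tumour 4 Vsir was called higher at 0.42 (adjusted p = 0.00862). Leaving out tumour 4 also took the edgeR adjusted p of Cd274 from 2.76e-06 to 5.06e-10. The Vsir and Cd47 calls rest on that setting alone.

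The remaining members tested on day 7 differed little beyond their spread. Lgals9, the galectin-9 gene, averaged 224 ± 28.6 CPM in GFP cells, against 197 ± 40.0 CPM in mCherry cells (log2 fold change 0.21, 95% interval −0.02 to 0.44, edgeR adjusted p = 0.188). Among the TIGIT ligands, Nectin2 averaged 72.4 ± 7.35 CPM in GFP cells, against 63.2 ± 3.25 CPM in mCherry cells (interval −0.03 to 0.45, adjusted p = 0.216 in edgeR). Pvr averaged 71.7 ± 7.21 CPM in GFP cells, against 80.2 ± 7.56 CPM in mCherry cells (interval −0.39 to 0.09, adjusted p = 0.391 in edgeR). The libraries of the groups overlapped for each of these 3 genes. These intervals do not show that the levels were equal.

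Pdcd1lg2 and Cd200 did not pass the filter on low counts on day 7. Pdcd1lg2 had 1, 0 and 3 counts in GFP libraries of tumours 2, 3 and 4, against 29, 11 and 6 counts in mCherry libraries. Without the filter it was called lower (log2 fold change −2.86, edgeR adjusted p = 0.00756), in the same libraries where macrophage markers were lower. In edgeR that setting also took the adjusted p of Cd274 from 2.76e-06 to 1.54e-69, so the Pdcd1lg2 call is weak. A930007I19Rik, which overlaps Pdcd1lg2 on the other strand for 6412 bases, stood at 1.15 CPM in GFP cells, against 1.48 CPM in mCherry cells. Cd200 had 6, 0 and 2 counts in GFP libraries, against 11, 11 and 16 counts in mCherry libraries, and was not called without the filter (adjusted p = 0.0905 in edgeR).

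**Figure D1:**
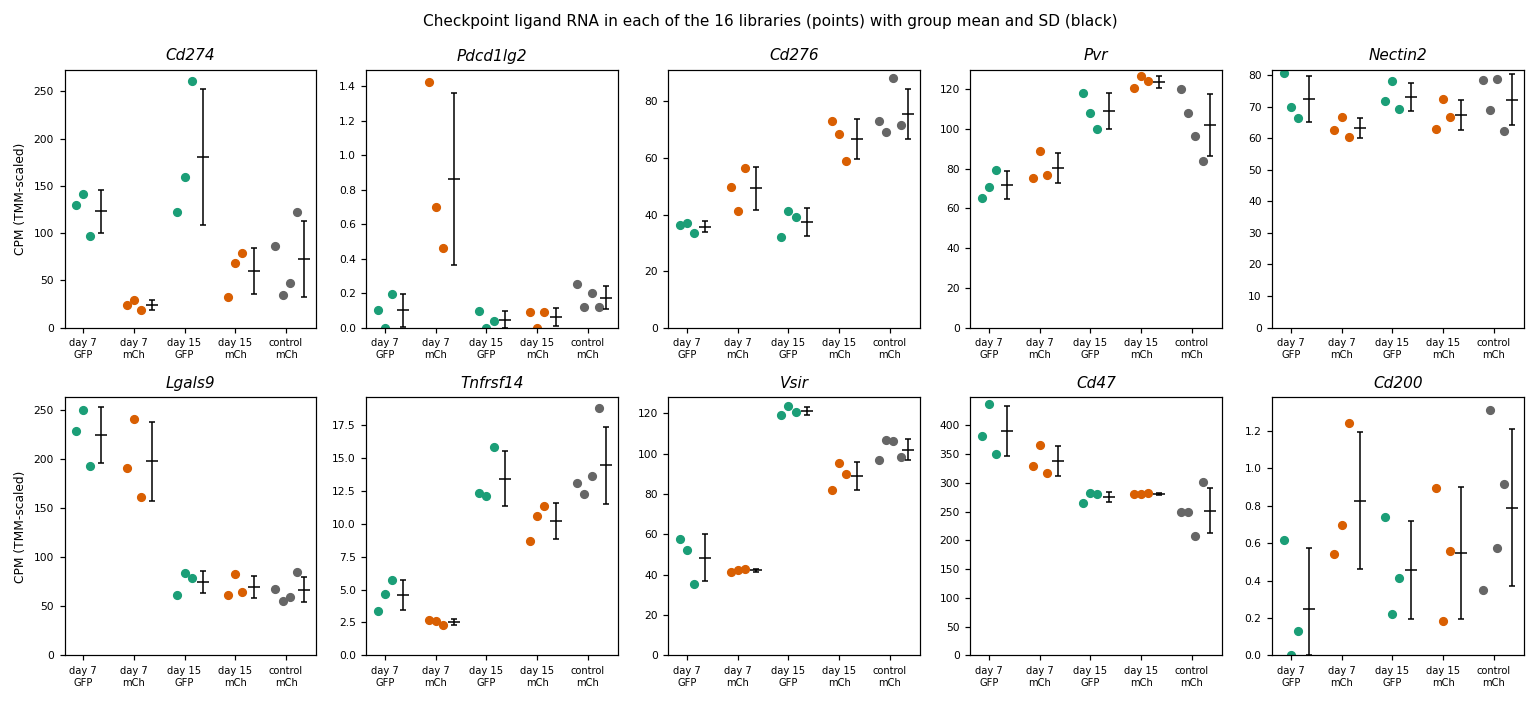
TMM-scaled CPM (y axis, linear, from 0) of the 10 checkpoint ligand genes in each of the 16 libraries (points), grouped on the x axis by day and reporter (mCh, mCherry), with group mean and SD in black. The day 7 GFP libraries of Cd274 sit at 97.3 to 142 CPM and the day 7 mCherry libraries at 18.3 to 29.2 CPM, and Pdcd1lg2 and Cd200 stay at or below 1.43 CPM in all 16 libraries.

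In tumours injected on day 15, Cd274 and Vsir were higher and Cd276 was lower in GFP cells than in mCherry cells of the same tumour. Day 15 tumours are also numbered as in the count columns, and a number shared with day 7 does not mean the same tumour. Cd274 stood at 123, 159 and 261 CPM in GFP cells of tumours 1, 2 and 3, against 32.96, 67.9 and 78.9 CPM in mCherry cells. The groups did not overlap, and the order of the tumours was the same in both reporters. The means were 181 ± 71.7 CPM in GFP cells, against 59.9 ± 24.0 CPM in mCherry cells (SD, n = 3 each). With tumour as a block the log2 fold change was 1.61 (SE 0.12; 3.06 times higher; edgeR adjusted p = 4.10e-05 over 14260 genes), and the tumours gave 1.89, 1.23 and 1.72. Among called genes, 67 rose more. The authors' deposited table gives 1.62 with an adjusted p of 7.27e-31 for Cd274 on day 15.

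On day 15, 2 members were called higher and 1 lower of the 9 that passed the filter, where 19.5% of all genes were called (8.94% higher, 10.6% lower). Over the 9 members the median log2 fold change was 0.10, against 0.01 over all genes tested. Cd276 stood at 31.9, 41.1 and 39.2 CPM in GFP cells of tumours 1, 2 and 3, against 73.0, 68.5 and 58.9 CPM in mCherry cells. Its groups were far from overlapping, and the fit gave −0.84 (SE 0.12; 1.79 times lower; edgeR adjusted p = 0.00109), a call kept under each of its 8 alternatives. Vsir stood at 119, 123 and 121 CPM in GFP cells, against 81.9, 95.3 and 89.7 CPM in mCherry cells. The GFP libraries lay within a narrow band above all mCherry libraries, with a log2 fold change of 0.45 (SE 0.08; 1.36 times higher; edgeR adjusted p = 0.00414) that also held under its 8 alternatives. For Vsir and Cd276 the authors' deposited table gives adjusted p-values of 4.68e-04 and 2.01e-07 on day 15.

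All 25834 bases of Vsir lie within Cdh23, a cadherin gene on the other strand, and no source used here states whether counting used strand. Cdh23 had counts of at most 1.57% of those of Vsir in day 15 GFP libraries and 1.25% in day 15 mCherry libraries, and averaged 1.71 CPM in day 15 GFP cells, against 0.823 CPM in day 15 mCherry cells. On day 7 its counts reached 9.59% of those of Vsir in GFP libraries, against 5.42% in mCherry libraries. Reads of overlapping genes cannot be told apart without strand. Of Cd274, 11055 bases overlap the antisense gene AC119228.1, which was not measured apart. Opposite-strand genes overlapping Cd276, Nectin2 and Pvr had counts of at most 4.81% of the member's.

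Tnfrsf14 stood at 12.3, 12.1 and 15.8 CPM in day 15 GFP cells of tumours 1, 2 and 3, against 8.65, 10.6 and 11.3 CPM in mCherry cells. The groups did not overlap, but the log2 fold change of 0.40 (SE 0.14) missed the threshold (edgeR adjusted p = 0.0755). Pvr stood at 118, 108 and 100 CPM in GFP cells, against 120, 126 and 124 CPM in mCherry cells. The GFP values lay just below the mCherry values (log2 fold change −0.19, 95% interval −0.38 to 0.00, edgeR adjusted p = 0.152), and without tumour 1 Pvr was called lower at −0.27 (adjusted p = 0.0257). Cd47 averaged 276 ± 8.80 CPM in GFP cells, against 281 ± 1.34 CPM in mCherry cells (interval −0.20 to 0.15, adjusted p = 0.845 in edgeR). Nectin2 averaged 73.0 ± 4.54 CPM in GFP cells, against 67.4 ± 4.81 CPM in mCherry cells (interval −0.07 to 0.30, adjusted p = 0.364 in edgeR). Lgals9 averaged 74.5 ± 11.4 CPM in GFP cells, against 69.6 ± 11.4 CPM in mCherry cells (interval −0.10 to 0.30, adjusted p = 0.489 in edgeR). The groups overlapped for these last 3 genes. Cd200 had 15, 5 and 10 counts in GFP libraries, against 20, 4 and 12 counts in mCherry libraries (edgeR adjusted p = 0.764). Pdcd1lg2 had 2, 0 and 1 counts in GFP libraries, against 2, 0 and 2 counts in mCherry libraries.

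**Figure D2:**
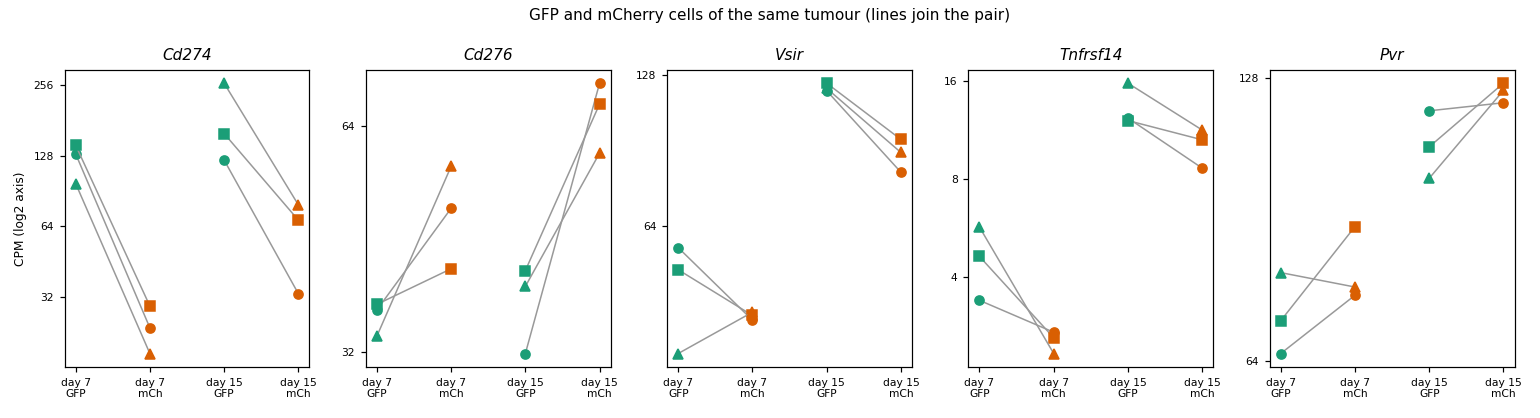
TMM-scaled CPM on a log2 axis of 5 members in the GFP (green) and mCherry (orange) cells of each tumour, with lines joining the pair; circles, squares and triangles are tumours 2, 3 and 4 on day 7 and tumours 1, 2 and 3 on day 15. GFP is the upper end of all 6 lines for Cd274 and the lower end of all 6 for Cd276, and for Vsir it is the upper end except in tumour 4 of day 7.

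The difference between the days was tested as the GFP effect on day 15 minus that on day 7, in the 12 libraries of mixed tumours. No member passed edgeR's threshold, where 0.211% of 16626 genes did. Of the 9 members tested, 1 (Cd274) had an unadjusted p under 0.05 in edgeR, where 10.2% of all genes tested did, so that count is near the share of all genes. DESeq2 called 1 member lower, again Cd274. For Cd274 the difference was −0.79 (SE 0.17, 95% interval −1.16 to −0.41; edgeR adjusted p = 0.101). It was called with DESeq2 (adjusted p = 0.0196) and without the filter on low counts (0.000666), and its adjusted p ranged up to 0.623 over 11 alternatives. Cd276 gave −0.40 (interval −0.82 to 0.02), Vsir 0.26 (−0.13 to 0.64) and Tnfrsf14 −0.44 (−1.07 to 0.18), with edgeR adjusted p-values of 0.509, 0.666 and 0.643. Since day and run coincide, a difference of day and one of run cannot be told apart.

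The day 15 mCherry cells against the controls asks whether untargeted cells of mixed tumours with Jedi T cells differed from mCherry cells of control tumours. The controls held neither GFP cells nor Jedi T cells, so the contrast holds both. No member was called by edgeR or DESeq2, where edgeR called 0.00% of 14800 genes (2104 had an unadjusted p under 0.05, and DESeq2 called 166 higher and 96 lower). Cd274 stood at 32.96, 67.9 and 78.9 CPM in day 15 mCherry cells, against 86.4, 34.2, 46.8 and 122 CPM in controls 1 to 4. Both groups were spread over more than 2-fold and overlapped, with a log2 fold change of −0.28 and a 95% interval of −1.27 to 0.72. Of the members, 3 had an unadjusted p under 0.05. Tnfrsf14 averaged 10.2 ± 1.38 CPM in day 15 mCherry cells (n = 3) and 14.4 ± 2.95 CPM in controls (n = 4; −0.50, edgeR adjusted p = 0.279). Vsir averaged 89.0 ± 6.72 CPM in day 15 mCherry cells, against 102 ± 5.17 CPM in controls (−0.20, edgeR adjusted p = 0.289). Pvr averaged 124 ± 2.99 CPM in day 15 mCherry cells, against 102 ± 15.6 CPM in controls (0.27, edgeR adjusted p = 0.328).

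The day 15 GFP cells against the same controls asks how survivors differed from tumour cells that met no Jedi T cells. The reporter differs as well. Of 9 members tested, 1 was called higher (Vsir) and 1 lower (Cd276), where 13.1% of 14801 genes were called (6.09% higher, 6.97% lower). These controls and the day 15 libraries also serve in the comparisons above, so the results are not independent. Cd276 stood at 31.9, 41.1 and 39.2 CPM in GFP cells, against 73.1, 69.1, 88.4 and 71.6 CPM in controls. Every GFP library lay well below every control (−1.01, SE 0.12; 2.02 times lower; edgeR adjusted p = 0.00580), also under each of 12 alternatives. Vsir stood at 119, 123 and 121 CPM in GFP cells, against 96.8, 107, 106 and 98.5 CPM in controls (0.25, SE 0.07; edgeR adjusted p = 0.0449). Its call ended without the filter on low counts (adjusted p = 0.1200) and without any 1 of the 7 libraries (0.0701 to 0.123).

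Cd274 stood at 123, 159 and 261 CPM in day 15 GFP cells, against 86.4, 34.2, 46.8 and 122 CPM in controls. The lowest GFP library lay just above the highest control. The log2 fold change of 1.32 (SE 0.42, 95% interval 0.38 to 2.27) missed the threshold (edgeR adjusted p = 0.0656), passed without the filter (0.0134) and without control 4 (1.69, adjusted p = 0.0252), and was 0.96 without GFP replicate 3 (0.189). The other members tested were not called: Pvr (0.09, interval −0.18 to 0.37), Nectin2 (0.02, −0.20 to 0.24), Lgals9 (0.15, −0.20 to 0.51), Tnfrsf14 (−0.10, −0.48 to 0.28), Cd47 (0.13, −0.13 to 0.39) and Cd200 (−0.80, −2.04 to 0.43). Pdcd1lg2 had 2, 0 and 1 counts in GFP libraries, against 8, 4, 6 and 3 counts in controls, and was not called without the filter (adjusted p = 0.278 in edgeR).

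**Figure D3:**
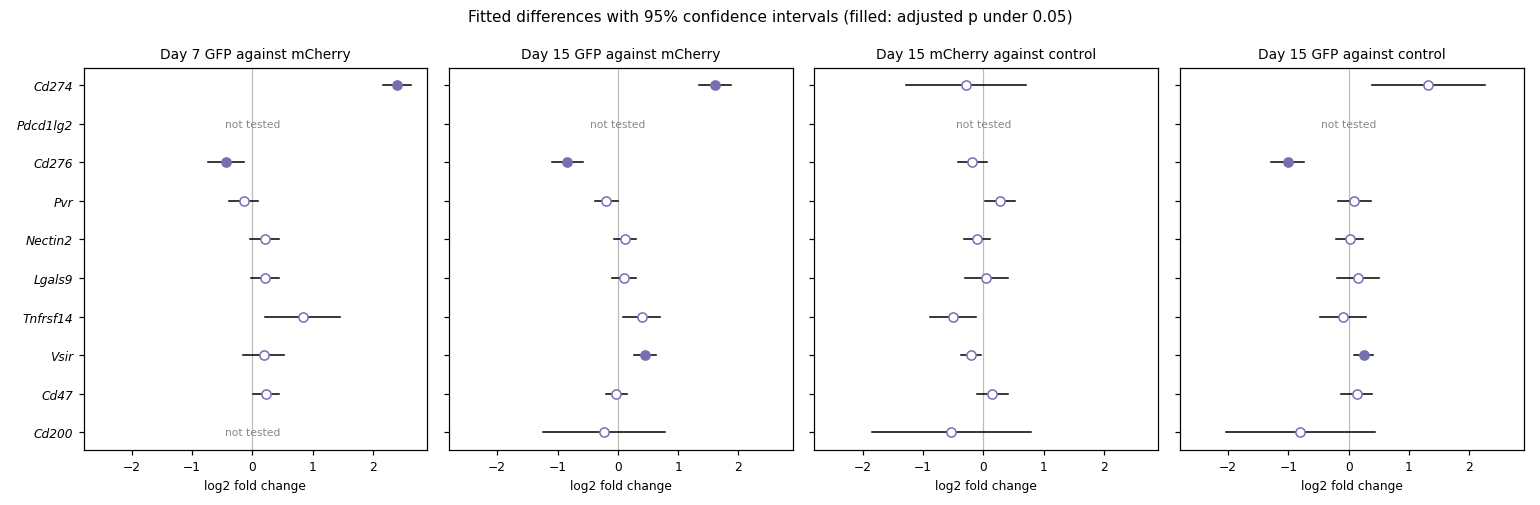
Fitted log2 fold changes (x axis; points) with 95% confidence intervals (lines) of the checkpoint ligand genes in 4 comparisons, with filled points at an edgeR adjusted p under 0.05. Cd274 lies at 2.40 and 1.61 against mCherry cells on the 2 days and Cd276 lies below 0 in all 4 panels, with an open point for mCherry cells against controls.

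Across all groups, the order of Cd274 means was day 15 GFP (181 CPM), day 7 GFP (123), controls (72.4), day 15 mCherry (59.9) and day 7 mCherry (23.7). Neighbours in this order overlapped in their libraries, except that every day 15 mCherry library lay above every day 7 mCherry library. For Cd276 the order was controls (75.5 CPM), day 15 mCherry (66.8), day 7 mCherry (49.2), day 15 GFP (37.4) and day 7 GFP (35.7), and only the first and the last pair of neighbours overlapped. Set against the controls across runs, with no test, day 7 GFP libraries did not overlap the controls for 2 members that were higher (Lgals9, Cd47) and 4 that were lower (Cd276, Pvr, Tnfrsf14, Vsir), where 34.3% of 17097 genes were higher and 33.7% lower in this way. Day 7 mCherry libraries lay above all controls for Lgals9, Cd47 and Pdcd1lg2 (at 6 to 29 counts a library) and below them for Cd274, Cd276, Tnfrsf14 and Vsir, where 36.0% and 34.2% of genes did so. Lgals9 averaged 224 CPM in day 7 GFP cells and 197 CPM in day 7 mCherry cells, against 67.0 CPM in controls, a gap that both reporters of run 1 share. Tnfrsf14 averaged 4.57 CPM in day 7 GFP cells and 2.54 CPM in day 7 mCherry cells, against 14.4 CPM in controls. Nectin2 had group means of 63.2 to 73.0 CPM, and each pair of neighbours in its order overlapped.

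Levels of different genes were compared per kilobase of exon (CPM per kb). In day 7 GFP cells Lgals9 led at 105 ± 13.4, followed by Cd47 at 62.1 ± 6.96 and Cd274 at 34.0 ± 6.37 (SD, n = 3). In day 7 mCherry cells Lgals9 (92.3) and Cd47 (53.8) led as well, and Cd274 was 7th of the 10 genes at 6.54 ± 1.502. In day 15 GFP cells Cd274 had the highest mean, 49.9 ± 19.8, ahead of Cd47 at 44.0 ± 1.40, a gap smaller than the SD of Cd274. Cd274 was 7th in day 15 mCherry cells at 16.5 ± 6.63 and 6th in controls at 20.0 ± 11.03. Pdcd1lg2 and Cd200 were the lowest 2 members in each group, at no more than 0.440.

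Cd274 and Cd276, both B7 family genes, moved in opposite directions, so the ratio of their counts was taken within each library (a measure chosen after the values were seen, not corrected for length and not tested). It was 3.57, 3.82 and 2.89 in day 7 GFP libraries of tumours 2, 3 and 4, against 0.473, 0.706 and 0.323 in day 7 mCherry libraries. On day 15 it was 3.84, 3.87 and 6.66 in GFP libraries of tumours 1, 2 and 3, against 0.452, 0.992 and 1.34 in mCherry libraries and 1.18, 0.495, 0.529 and 1.71 in controls. The 6 GFP libraries of both days thus lay above all 10 mCherry libraries.

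**Figure D4:**
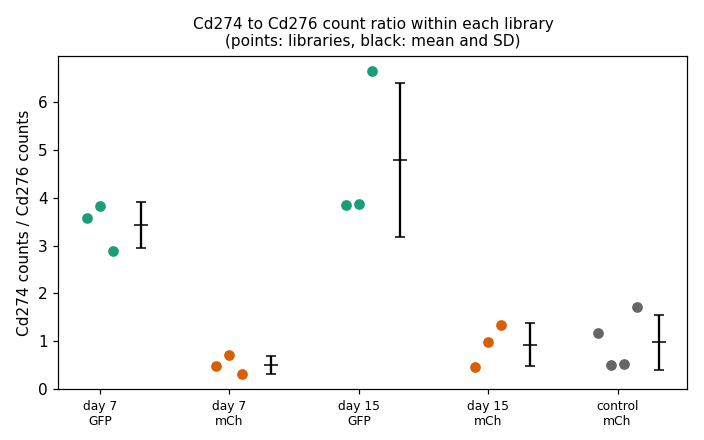
Ratio of Cd274 to Cd276 counts (y axis, linear, from 0) in each library (points) by group (x axis), with mean and SD in black. The GFP libraries of both days lie at 2.89 to 6.66 and all mCherry libraries, controls included, at 0.323 to 1.71.

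Of the genes compared for likeness to Cd274, 11078 had a mean log2 CPM of at least 1 in both runs. Likeness was Pearson's r of log2 CPM, centred within each run, over the 16 libraries, which share the contrast of reporters, and it is given as a description. The 5 highest were H2-T23 (0.99), Parp11 (0.98), Gbp2b (0.98), Gm43302 (0.98) and Gbp2 (0.98). H2-T23 belongs to the MHC class I family and Gbp2 and Gbp2b to the guanylate-binding proteins, whose near copies may share reads, so their values are uncertain. H2-T23, which encodes the NKG2A ligand Qa-1, averaged 1309 ± 241 CPM in day 7 GFP cells and 419 ± 118 CPM in day 7 mCherry cells. On day 15 it averaged 740 ± 137 CPM in GFP cells, against 370 ± 97.9 CPM in mCherry cells, against 408 ± 140 CPM in controls. Among the other members, r with Cd274 was 0.72 for Tnfrsf14, 0.64 for Lgals9, 0.60 for Cd47, 0.55 for Vsir, 0.44 for Nectin2, −0.37 for Pvr and −0.72 for Cd276.

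Genes that control Cd274 or its protein were read from a list of 35, all of them tested. On day 7, 10 were higher and 4 lower in GFP cells, with a median log2 fold change of 0.17. Over all genes tested, 8.89% were higher and 9.33% lower. Stat2, a transcription factor of type I interferon signalling, had a log2 fold change of 2.11, Nlrc5, the activator of MHC class I genes, of 1.69, and Socs1, a feedback inhibitor of JAK kinases, of 1.61. Irf1, a direct activator of Cd274, averaged 687 ± 36.4 CPM in GFP cells, against 270 ± 59.0 CPM in mCherry cells (1.39, edgeR adjusted p = 9.98e-05). The genes of both interferon gamma receptor chains were named after their values were seen: Ifngr2 fell by 0.54 (edgeR adjusted p = 0.00776), while Ifngr1 had a log2 fold change of 0.04 (0.856). Jak2, which neighbours Cd274, averaged 30.6 ± 3.99 CPM in GFP cells, against 33.2 ± 3.29 CPM in mCherry cells (edgeR adjusted p = 0.609). Cmtm6, which keeps PD-L1 protein at the cell surface, averaged 67.6 ± 0.992 CPM in GFP cells, against 61.8 ± 4.51 CPM in mCherry cells (edgeR adjusted p = 0.362).

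On day 15, 8 of the 35 were higher and 3 lower in GFP cells (median 0.04), where 8.94% of all genes tested were higher and 10.6% lower. Stat2 (1.28), Nlrc5 (0.83) and Irf9, a partner of STAT2 (0.72), were among those with the smallest p-values. Irf1 averaged 437 ± 131 CPM in GFP cells, against 348 ± 28.2 CPM in mCherry cells (n = 3) and was not called (0.28, edgeR adjusted p = 0.132). Its day 15 minus day 7 difference was −1.10 (edgeR adjusted p = 0.0556). Nlrc5 was the 1 list gene called in that contrast (−0.86, edgeR adjusted p = 0.0490), where 0.211% of all genes tested were called. Against controls, day 15 GFP cells had 2 list genes higher, Irf7 (1.39) and Irf9 (0.72), and 2 lower, Hip1r (−0.82), whose protein sends PD-L1 to lysosomes in human cells, and Ifnar1 (−0.31). There 13.1% of all genes tested were called, so these counts do not set the list of 35 apart. Jak2 and Cmtm6 were not called on day 15 (edgeR adjusted p = 0.431 and 0.582 against mCherry cells).

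A list of 25 further ligands of inhibitory receptors had 14 members tested on day 7, of which 6 were higher and 1 lower in GFP cells (median 0.35). Over all genes tested, 8.89% were higher and 9.33% lower. The smallest p-values were those of H2-T23 (1.68) and Cdh1. Cdh1, which encodes E-cadherin, the KLRG1 ligand, averaged 25.4 ± 2.48 CPM in GFP cells, against 6.79 ± 0.678 CPM in mCherry cells (1.92, edgeR adjusted p = 5.54e-05). H2-Q10, another MHC class I gene, had a log2 fold change of 0.82 and Cd24a, a Siglec ligand, of 1.18. Near copies of H2-Q10 may share its reads, so its values are uncertain as well. On day 15, 6 of 15 were higher and 2 lower (median 0.23), with Cdh1 at 1.36 and H2-T23 at 1.02. Over all genes tested that day, 8.94% were higher and 10.6% lower. Thbs1, a thrombospondin that binds CD47, averaged 499 ± 155 CPM in day 15 GFP cells and 258 ± 107 CPM in day 15 mCherry cells (0.97, edgeR adjusted p = 3.52e-04). Tgfb1, the gene of an inhibitory cytokine, averaged 56.1 ± 7.24 CPM in GFP cells, against 96.9 ± 4.75 CPM in mCherry cells (−0.79, edgeR adjusted p = 6.99e-04). Against controls 3 of 15 were higher, among them Thbs1 (1.01) and Cd24a (0.79), and 1 lower, Tgfb1 (−0.73). In that comparison 6.09% of all genes tested were higher and 6.97% lower.

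Ligands that activate lymphocytes had no member called higher in GFP cells. Of 10 tested on day 7, 6 were lower (median −1.34), and of 7 tested on day 15, 5 were lower (median −0.57), as were 3 of 7 against controls. Over all genes tested, 9.33%, 10.6% and 6.97% were lower in these comparisons. Raet1d, a ligand of the activating receptor NKG2D, averaged 6.25 ± 0.619 CPM in day 7 GFP cells and 21.4 ± 2.69 CPM in day 7 mCherry cells (−1.75, edgeR adjusted p = 1.89e-04). On day 15 it averaged 3.44 ± 0.726 CPM in GFP cells, against 9.46 ± 2.12 CPM in mCherry cells (−1.46, edgeR adjusted p = 8.78e-04). Raet1e, a near copy, gave −1.51 on day 7 and −1.50 on day 15, and reads may be split between the 2 genes, so both are uncertain. Ulbp1, another NKG2D ligand, gave −0.85 against mCherry cells and −0.48 against controls on day 15. Cd86 (−2.18) and Cd48 (−2.50), ligands found on myeloid cells, were also lower on day 7, where 18 of 20 macrophage and monocyte markers were lower. The part of such cells in these ligand results was not tested.

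Of 17 receptors of checkpoint ligands, many of them carried by lymphocytes and macrophages, 9 passed the filter on day 7 and 3 were lower in GFP cells: Sirpa, the CD47 receptor (−2.72), Selplg, which binds VISTA in human cells (−2.30), and Havcr2, the TIM-3 gene (−2.25). Over all genes tested on day 7, 9.33% were lower. Sirpa averaged 1.41 ± 0.876 CPM in GFP cells, against 9.10 ± 3.95 CPM in mCherry cells. The macrophage marker Lyz2 averaged 59.99 ± 28.6 CPM in GFP cells, against 369 ± 48.8 CPM in mCherry cells of the same libraries, and 15 T and NK cell markers summed to 11.9 to 23.6 CPM in GFP libraries, against 11.5 to 20.0 CPM in mCherry libraries. On day 15, 6 receptors were tested, and 1 was higher and 1 lower, where 19.5% of all genes tested were called. Lag3, an inhibitory receptor of T cells, averaged 8.82 ± 1.93 CPM in GFP cells, against 4.69 ± 2.01 CPM in mCherry cells (0.95, edgeR adjusted p = 0.00844), and Cd44, an adhesion receptor, was lower (−0.45, edgeR adjusted p = 0.00632). The summed level of 15 T and NK cell markers was 5.12 to 6.09 CPM in those GFP libraries, against 5.18 to 6.12 CPM in those mCherry libraries. Within that list Lck averaged 4.70 CPM in GFP cells, against 5.00 CPM in mCherry cells, and the defining marker Cd3e 0.116 CPM in GFP cells, against 0.153 CPM in mCherry cells. Against controls, 1 of 7 receptors was lower, Sirpa (−3.39), beside 15 of 19 macrophage and monocyte markers and 6.97% of all genes tested. The part of other cell types in these receptor results was not tested.

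Neighbours of Cd274 on chromosome 19 were read from a list of 15, of which 11 were tested. On each day 3 were higher and 1 was lower in GFP cells, and against controls none was higher and 1, Rcl1, was lower. Over all genes tested, 18.2% were called on day 7, 19.5% on day 15 and 13.1% against controls. Insl6, an insulin-like gene between Jak2 and Cd274, averaged 123 ± 21.4 CPM in day 7 GFP cells and 55.7 ± 11.1 CPM in day 7 mCherry cells (1.16, edgeR adjusted p = 7.84e-05). On day 15 it averaged 33.8 ± 6.58 CPM in GFP cells, against 19.5 ± 4.43 CPM in mCherry cells (0.80, edgeR adjusted p = 6.99e-04). Plgrkt, whose 5′ end lies in the Cd274 promoter window, averaged 34.4 ± 1.46 CPM in GFP cells, against 25.9 ± 3.46 CPM in mCherry cells on day 7 (0.43, edgeR adjusted p = 0.0468), and its log2 fold change was 0.45 on day 15 (0.0111). Ak3, an adenylate kinase gene that overlaps Cdc37l1 on the other strand, was higher on both days (0.37 and 0.51). Il33, the gene of an alarmin cytokine, was lower on day 7 (−2.50), and Ermp1, a peptidase gene, was lower on day 15 (−0.43). All 10 endothelial markers tested on day 7 were lower in GFP cells too, and the part of endothelial cells in the Il33 result was not tested.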

How the data were processed

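The authors deposited raw counts for each gene, generated by the sequencing provider per the labels' protocols; the submitters' processing notes name mm10 and DESeq2. No source used here names the aligner, counter or strand setting. Deposited tables of the authors' own DESeq2 comparison hold log2 fold changes, a Wald score, p-values and a mean signal, per the file headers. Each count table lists 49315 genes; those without a symbol (at most 0.0110% of counts) were left out.

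Genes that passed filterByExpr (minimum count 10, total 15) were scaled by TMM and tested by edgeR 4.0.16 quasi-likelihood in R 4.3.3, adjusted by Benjamini-Hochberg across every gene tested. The SE was derived from the fold change and its F statistic. GFP and mCherry cells were compared with tumour as a block (2 residual degrees of freedom), controls without one (5), and the days with 4. The labels give both reporters of a tumour 1 tumour number. Day 7 columns carry numbers 2 to 4 where the labels have 1 to 3, and controls 1 to 4 where they have 0 to 3, so columns were matched by group and paired by column number. Deviations from group means correlated at 0.110 to 0.162 on day 7 and 0.0896 to 0.232 on day 15 for shared numbers, against −0.183 to 0.0186 otherwise. Each replicate is a separately numbered tumour, per the labels. With tumour as a block, p-values rest on how the GFP minus mCherry difference varied from tumour to tumour. Against controls they rest on the spread between tumours. In both, edgeR's quasi-likelihood fit also draws on the spread of other genes, since few residual degrees of freedom remain. Replicates differed beyond counting error (chi-square per degree of freedom 5.34 to 92.1). Differences per tumour used a prior count of 2.

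The members and lists were chosen with earlier results of these data known. All members are named, and from each list up to 4 called genes of smallest p per comparison, plus Jak2, Irf1 and Cmtm6; 1 gene that this rule names is not reported here. Gene models are from GENCODE M21. Alternatives were DESeq2 1.42.0, DESeq2 scaling within edgeR, omitting the filter, a filter of 50 counts, omitting the block, fitting run 2 jointly, and leaving out tumours or libraries. The edgeR steps were tested on simulated counts.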

Additional observations from a re-analysis of the deposited data

How the results depend on the processing

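On day 7, the count of members called lower was 0 with DESeq2 and 0 without the tumour block, and without the filter on low counts 2 members were called higher and 2 lower. In edgeR, omitting the filter took the adjusted p of Cd274 from 2.76e-06 to 1.54e-69 on day 7. The day 15 value went from 4.10e-05 to 4.25e-59. Calls made only without the filter are thus weak. Leaving out 1 tumour gave 1 to 3 members higher and 0 to 1 lower on day 7. The 3 higher were those without tumour 4, the setting that also called the most genes higher (2240). The 1 lower, also without tumour 4, was Pdcd1lg2 (edgeR adjusted p = 0.00524), not Cd276. None of the member counts in this section, here or below, is set against the share of all genes in its setting, so they describe the calls only. On day 15 it gave 1 to 2 lower (Cd276, and Pvr without tumour 1). Against controls, day 15 GFP cells had 0 to 1 member higher when 1 library was left out, which was Cd274 without control 4. For the difference between days, 1 member (Cd274) was called lower with DESeq2 and 1 without the filter. Dropping the block changed no other member's call; its Cd274 values were 2.39 on day 7 and 1.59 on day 15 (edgeR adjusted p = 7.86e-05 and 0.0168). Cd274 kept its call within tumours under all 8 alternatives on each day, at 2.36 to 2.47 on day 7 and 1.48 to 1.82 on day 15. Some uncalled values changed sign when 1 tumour or library was left out. Day 15 mCherry against control ran from −0.53 to 0.10 for Cd274 and −0.0885 to 0.191 for Lgals9. Day 15 GFP against control ran from −0.0492 to 0.0592 for Nectin2 and −0.231 to 0.0487 for Tnfrsf14. The day difference ran from −0.164 to 0.0134 for Nectin2 and −0.139 to 0.0824 for Pvr. Counts over all genes depend more on the setting. The 17 genes higher and 18 lower between days became 73 and 80 with DESeq2, 178 higher without the filter, and 2 and 0 without the block, and 2 were lower with the filter of 50 counts. DESeq2 called 1419 genes higher in day 15 GFP cells than in controls, against 902 in edgeR. Leaving out 1 GFP library there left 140 to 404 higher and 147 to 510 lower, and leaving out control 2 or 3 left 382 or 337 higher. Leaving out 1 tumour gave 522 to 2240 genes higher on day 7 (lowest without tumour 3, highest without tumour 4), and without tumour 3 it was 764 on day 15. Between day 15 mCherry cells and controls, 7 genes were called higher without control 4. Precision is limited by 3 tumours a day, and for Pdcd1lg2 and Cd200 by counts of at most 29 and 44 in any library.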
